A study of Homo sapiens with 4 samples.

Results

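Collagen chain genes were read out in a human fibroblast line before and after induction of the transcription factor FOXA2. They were taken as all rows of the deposited table whose gene symbol is COL, a number, A and a number. The rule found 50 of the 63651 rows, which hold 44 symbols, because COL11A2 has 6 further rows on alternative haplotypes of the MHC region. Levels are in FPKM, which corrects fragment counts for transcript length and sequencing depth, so they can be compared between genes. The chains with 1 FPKM or more in either column used here are described below: 24 of the 44, among 14319 rows of the whole table at that level.

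Collagens are the main structural proteins of the extracellular matrix, and each molecule is a triple helix of 3 alpha chains that can come from 1 gene or from several. Fibrillar collagens (types I, II, III, V, XI, XXIV and XXVII) form the fibrils of skin, bone and tendon, and in them type V regulates fibril assembly. Type IV builds the sheet of basement membranes, FACIT collagens sit on the surface of fibrils, and the remaining types form beaded filaments, hexagonal networks and anchoring fibrils or span the cell membrane. Dermal fibroblasts are a main source of types I, III, V and VI.

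BJ-5ta is an established foreskin fibroblast line immortalised with telomerase, and clonal derivatives with a doxycycline-inducible FOXA2 were used. FOXA2 is a forkhead factor of the endoderm that can bind nucleosomal DNA. The labels give 2 uninduced samples, grown without the drug, and 2 induced samples, given 0.5 µg/ml doxycycline; all carry the transgene and were grown in hygromycin B, puromycin and bFGF, and the labels name no promoter. The question was what FOXA2 induction does to RNA levels. How many clones were profiled, how long induction lasted and which cultures received mimosine, an agent the protocol uses to halt cells in G1, is not stated. No sample given doxycycline without the transgene was used here, so the drug and the factor cannot be told apart.

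The table gives 1 FPKM value with a lower and an upper bound for each group, and no value per sample, so no difference below has a replicate check and no p-value could be computed. The words rose and fell are used only where the interval of the uninduced column and that of the induced column had no FPKM value in common. FOXA2 was at 4.82 FPKM (interval 0.526 to 9.12) uninduced and 104 (50.2 to 158) induced, and rose by this criterion. Sequencing depth is unknown. The FPKM of all 63651 rows summed to 553536 uninduced and 482743 induced. All 10 fibroblast markers listed were above 1 FPKM, with a summed level of 3479 FPKM uninduced and 1748 induced, VIM the highest at 2098 and 905. FAP fell, from 36.8 FPKM (14.3 to 59.4) to 3.84 (0 to 9.41). Some of the other fibroblast markers were level or higher, with DCN at 58.1 and 122 FPKM, LUM at 143 and 181, PDGFRA at 59.0 and 62.5 and TWIST1 at 27.4 and 26.5. The rest were lower with overlapping intervals, THY1 at 388 and 92.5 FPKM, S100A4 at 492 and 231, FBN1 at 115 and 76.3 and PDGFRB at 61.9 and 47.3. Endothelial markers summed to 0.282 and 0.102 FPKM, with PECAM1, CDH5, KDR and ERG listed at 0, and muscle and fat markers to 0.246 and 0.212, with DES, MYOD1, ADIPOQ and LEP at 0. Of 8 keratinocyte and epithelial markers only KRT10 passed 1 FPKM (summed level 16.2 and 11.2, KRT5 and KRT1 at 0), and of 7 melanocyte and neural markers MITF and PMEL (9.42 and 5.25, SOX10 and S100B at 0). Of 7 immune markers PTPRC, CD14 and CD68 passed (95.4 and 182, nearly all from CD68, with CD3E at 0). PMEL, PTPRC and CD14 reached 1 FPKM only in the induced column. The part of these differences in the collagen values was not tested. In bulk RNA, fewer cells of a type and less RNA per cell cannot be told apart.

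Collagen RNA was abundant in both columns, and the mixture of types differed between them. Summed over the 44 chains it came to 3595 FPKM uninduced and 3245 induced, 0.649% and 0.672% of the FPKM sum of all rows. Type I made up 42.0% of the collagen sum uninduced and 31.3% induced, and type VI 31.8% and 23.5%. Type III went from 3.47% to 13.7% and type V from 7.12% to 13.6%. Types III and V together therefore stood at 10.6% and 27.3%, and types I and VI together at 73.8% and 54.9%. By structural class, fibrillar chains held 53.4% and 60.0% of the sum, basement membrane chains 4.13% and 5.86%, FACIT chains 3.98% and 2.90%, and the other chains 38.5% and 31.2%. These shares are a description of 1 value per group, and the wide intervals of the abundant chains, given below, apply to them as well.

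**Figure D1:**
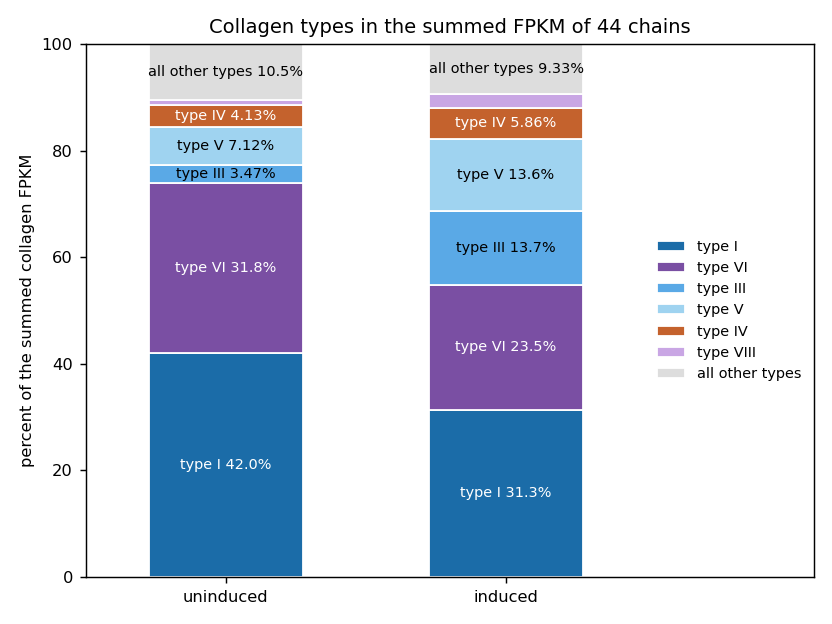
Share of the summed FPKM of the 44 collagen chains held by each collagen type (vertical axis, percent) in the uninduced and the induced column. Types I and VI take 73.8% of the uninduced and 54.9% of the induced bar, and types III and V 10.6% and 27.3%.

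Across the 24 chains kept, none rose and none fell by the intervals. In all rows kept 0.726% rose and 0.454% fell, which over 24 genes is also less than 1 gene in either direction. The 1-column intervals are wide: the upper bound lay above the value by a median of 99.8% of that value for the chains uninduced and 87.8% induced, against 101% and 99.97% over all rows. For 8 chains (COL1A1, COL1A2, COL5A1, COL27A1, COL16A1, COL7A1, COL10A1 and COL8A2) the lower bound was 0 in both columns, so this criterion could not have been met in either direction. That is 33.3% of the chains, against 45.6% of all rows kept. A looser criterion asked whether the interval of the difference, with the distances from each value to its upper bound added in quadrature, lay off 0, as it did above 0 for 1.26% and below 0 for 1.11% of all rows. It was met by 1 chain in each direction, COL14A1 higher and COL13A1 lower. COL14A1 was kept only through the induced column, so it could not have been lower.

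By size alone, 6 of 24 chains were 2-fold or more higher in the induced column on the log2(FPKM + 1) scale (COL10A1, COL3A1, COL14A1, COL8A1, COL4A6 and COL4A5), where 9.20% of all rows kept were. One chain, COL13A1, was 2-fold or more lower, where 6.03% of all rows were. COL10A1, COL14A1 and COL8A2 were kept only through the induced column and so had to be higher there. Among the 21 chains at 1 FPKM or more in both columns, 4 were 2-fold higher and 1 was lower, against 6.58% and 5.50% of 12803 such rows. The median log2 difference, induced minus uninduced, was 0.20 over the 24 chains (13 above 0, 11 below) and -0.08 over the 21, beside 0.05 and 0.02 over all rows. The median of 24 therefore depends on the chains that entered through 1 column only.

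**Figure D2:**
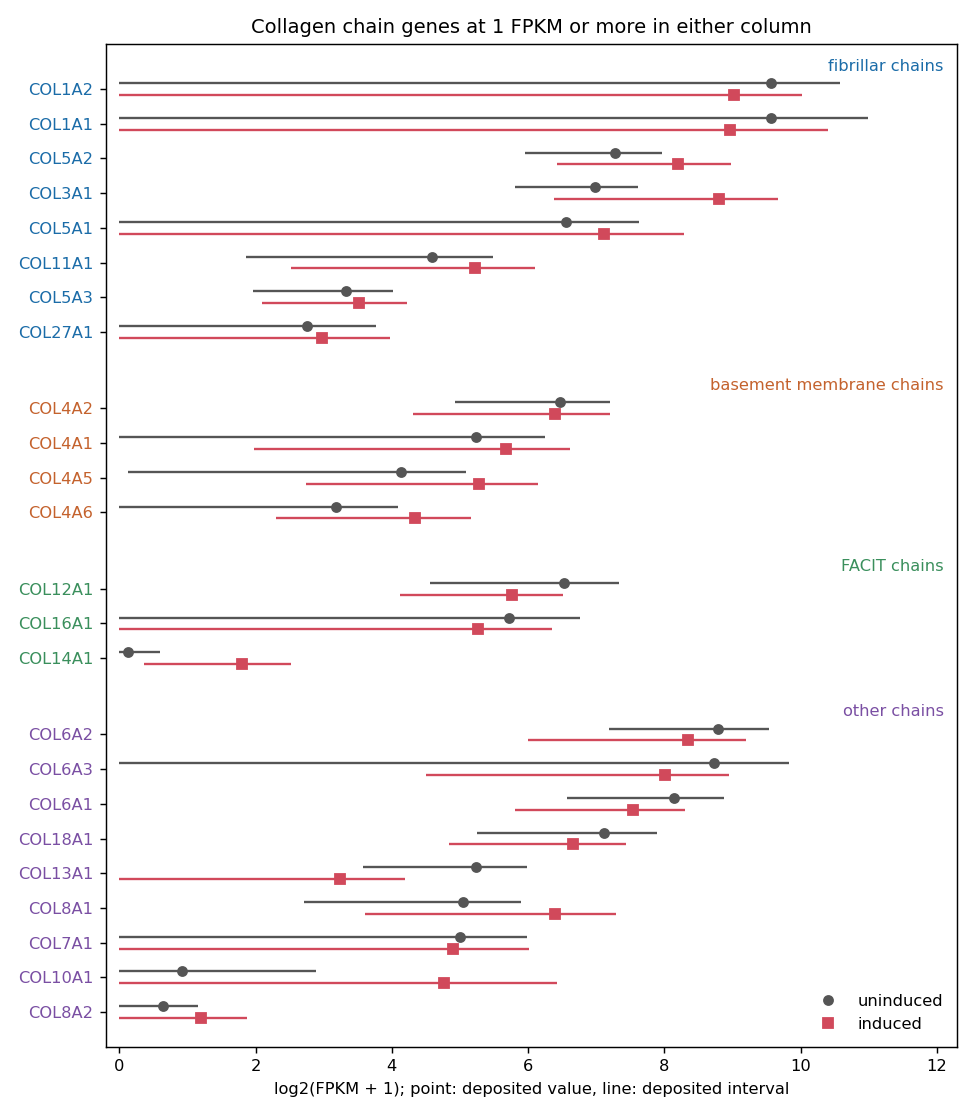
Level of each of the 24 collagen chains kept, as log2(FPKM + 1) on the horizontal axis, by structural class. Circles are uninduced and squares induced deposited values, lines the deposited intervals; every pair of intervals overlaps, and the points lie farthest apart for COL10A1, COL13A1, COL3A1 and COL14A1.

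Among the fibrillar chains, the type I chains were lower and the type III and V chains higher in the induced column, the type I difference being near 0 under quantile normalization. COL1A2 and COL1A1, which build type I collagen, were at 756 FPKM (0 to 1528) and 754 (0 to 2023) uninduced and at 519 (0 to 1038) and 498 (0 to 1349) induced, log2 differences of -0.54 and -0.60. With quantile normalization these were -0.041 and -0.11. They ranked 51 and 52 among all rows uninduced and 56 and 63 induced. Both lower bounds were 0 in each column, so the intervals overlap over most of their length.

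COL3A1, whose product forms type III homotrimers in fibrils mixed with type I, was at 125 FPKM (54.9 to 195) uninduced and 445 (82.6 to 808) induced. That is 3.57 times the uninduced level, a log2 difference of 1.83, and 97.5% of all rows kept had a lower one. Its rank moved from 814 to 76. The induced lower bound of 82.6 lies under the uninduced upper bound of 195, and the interval of the difference ran from -48.8 to 690 FPKM. COL5A2, the second chain of the common type V heterotrimer, was at 154 FPKM (60.9 to 248) and 294 (84.6 to 504), 1.91 times higher, with a log2 difference of 0.93. Its partner COL5A1 was at 92.7 FPKM (0 to 197) and 137 (0 to 313), a log2 difference of 0.56.

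The other fibrillar chains were less abundant. COL11A1, a type XI chain best known from cartilage fibrils, was at 23.2 FPKM (2.61 to 43.7) uninduced and 36.3 (4.75 to 67.9) induced. COL5A3, the third type V chain, was at 9.05 FPKM (2.89 to 15.2) and 10.5 (3.28 to 17.7). COL27A1 was at 5.78 (0 to 12.6) and 6.83 (0 to 14.7). These 3 chains had log2 differences of 0.63, 0.19 and 0.21, and each value lay inside the other column's interval. Over the 8 fibrillar chains kept of 11, the median log2 difference was 0.39, with 6 above 0 and the type I pair below. This median was 0.21 over all 11 chains with no filter and 0.57 when both columns were given equal sums.

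Ratios of chains were read within and between types. COL1A1 stood at 0.997 times COL1A2 uninduced and 0.959 times induced. COL5A1 stood at 0.601 and 0.467 times COL5A2. COL1A1 stood at 6.05 times COL3A1 uninduced and 1.12 times induced, and at 4.89 and 1.69 times COL5A2, pairs that were chosen after the values had been seen. The bounds of the columns allow COL1A1 to COL3A1 ratios from 0 to 36.9 uninduced and from 0 to 16.3 induced, so these shifts in proportion lie within the deposited bounds. COL3A1 and COL5A2 are neighbours on chromosome 2 (hg19, 189839046 to 189877472 and 189896622 to 190044605, 19149 bases apart), and both were higher induced.

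Of the basement membrane chains, COL4A5 and COL4A6 were 2-fold or more higher in the induced column, COL4A1 was higher by less and COL4A2 was near its uninduced level. Type IV genes lie head to head in pairs with shared start regions. COL4A5 was at 16.5 FPKM (0.093 to 32.9) uninduced and 37.7 (5.65 to 69.8) induced, and COL4A6 at 8.04 (0 to 16.1) and 19.3 (3.90 to 34.6). Their log2 differences were 1.15 and 1.16, 2.29 and 2.40 times the uninduced levels, and the intervals of each gene overlap. COL4A1 was at 36.5 FPKM (0 to 74.8) and 50.1 (2.93 to 97.3), a log2 difference of 0.45. COL4A2 was at 87.4 (29.3 to 146) and 82.9 (18.9 to 147), a log2 difference of -0.08, which turns to 0.12 when the columns are scaled to the same sum or quantile normalized. COL4A3 and COL4A4, known from kidney and other specialised membranes, were at or below 0.024 FPKM in both columns. The COL4A5 to COL4A6 ratio was 2.05 uninduced and 1.96 induced, and the COL4A1 to COL4A2 ratio 0.417 and 0.605; for the latter the bounds allow 0 to 2.55 and 0.020 to 5.14. In the table COL4A1 and COL4A2 carry 1 merged locus on chromosome 13, and COL4A6 shares its locus with ATG4A, which was at 11.7 and 13.6 FPKM.

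The start regions of these type IV pairs are shown because the partners of each pair share one. Sequences are from RefSeq on GRCh38.p14, a newer build than the table's hg19, and end just before the gene's start site. RefSeq lists 2 start sites for COL4A6, and the nearer one lies 380 bases from that of COL4A5 on chromosome X (the other, at position 108438422, is not shown), so the windows of 250 bases overlap on opposite strands, COL4A5 on the plus strand at chrX:108439588-108439837 and COL4A6 on the minus strand at chrX:108439459-108439708. Those of COL4A1 and COL4A2 lie 127 bases apart, and the 126 bases between them, chr13:110307158-110307283, are printed on the plus strand, toward COL4A2. Capitals mark CCAAT or its reverse complement ATTGG, and GGGCGG, the core of the GC box bound by Sp1-type factors.
COL4A5: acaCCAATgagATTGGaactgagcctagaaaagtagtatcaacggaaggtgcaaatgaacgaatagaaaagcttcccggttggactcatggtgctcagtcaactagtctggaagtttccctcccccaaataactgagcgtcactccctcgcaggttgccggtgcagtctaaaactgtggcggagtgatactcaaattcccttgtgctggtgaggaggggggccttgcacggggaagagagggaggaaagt
COL4A6: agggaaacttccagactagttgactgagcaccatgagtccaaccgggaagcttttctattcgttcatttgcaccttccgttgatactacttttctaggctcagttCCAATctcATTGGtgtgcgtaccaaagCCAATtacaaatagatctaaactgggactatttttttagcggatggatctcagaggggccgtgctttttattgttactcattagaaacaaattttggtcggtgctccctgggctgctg
COL4A1 to COL4A2: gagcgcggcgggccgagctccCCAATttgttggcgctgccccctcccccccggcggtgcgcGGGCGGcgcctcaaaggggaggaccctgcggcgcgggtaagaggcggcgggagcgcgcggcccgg
The COL4A5 window holds CCAAT 247 and ATTGG 239 bases before its start site. The same letters stand 137 and 145 bases before this COL4A6 start site, which has a further CCAAT at 118. The span between COL4A1 and COL4A2 holds CCAAT 105 bases and GGGCGG 65 bases before the COL4A2 start site.

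Over all 24 chains kept, 17 matched a RefSeq window by symbol, with 22 windows between them. COL1A1, COL1A2, COL3A1, COL5A2, COL6A1, COL8A1 and COL14A1 were not matched. Forkhead letters (TGTTTAC, its variant with TATTTAC, and a further variant, TGTTTGC, each on both strands) were found in 0 of the 22 windows and in 8.27% of all 35116 windows of 250 bases. CCAAT (both strands) was in 8 of 22 (36.4%) and in 32.0% of all, GGGCGG (both strands) in 15 (68.2%) and in 42.6%, and TATAAA (gene strand) in 5 (22.7%) and in 6.80%. Other forms of the forkhead site were not searched. The motifs were searched one at a time, so matches to different motifs may overlap. Windows of 1 gene are not independent, and a match or its absence describes only the letters of the window.

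Among the FACIT chains, the abundant ones were lower. A rare one, COL14A1, was kept only through the induced column and so had to be higher there. COL12A1, a long chain that binds the surface of type I fibrils, was at 91.0 FPKM (22.5 to 160) uninduced and 53.5 (16.4 to 90.6) induced, a log2 difference of -0.76. COL16A1 was at 51.6 (0 to 108) and 37.3 (0 to 80.7), a log2 difference of -0.46; PEF1, which shares its locus, was at 58.1 and 45.9 FPKM. COL14A1, a relative of COL12A1, was at 0.088 FPKM (0 to 0.509) and 2.49 (0.280 to 4.70). Its log2 difference was 1.68, and the interval of the difference, 0.152 to 4.66 FPKM, lay above 0, while the column intervals overlap between 0.280 and 0.509. The 7 other FACIT chains were below 1 FPKM in both columns.

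Type VI chains, which assemble into beaded filaments around cells, had lower values in the induced column, except that COL6A2 was level under quantile normalization. COL6A2 was at 441 FPKM (145 to 738) uninduced and 323 (63.1 to 584) induced, a log2 difference of -0.45 that turns to 0.01 under quantile normalization. COL6A3 was at 422 (0 to 910) and 256 (21.7 to 490), and COL6A1 at 281 (94.0 to 467) and 184 (55.0 to 313), log2 differences of -0.72 and -0.60. COL6A1 stood at 0.636 times COL6A2 uninduced and 0.570 times induced, with bounds of 0.127 to 3.23 and 0.094 to 4.97. COL6A3 stood at 1.504 and 1.39 times COL6A1. COL6A1 and COL6A2 are neighbours on chromosome 21, 93046 bases apart (hg19). COL6A5 was listed at 0 in both columns and COL6A6 was at 0.007 FPKM in each.

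Of the short chains that form hexagonal networks, COL8A1 was higher in the induced column. COL8A2 and COL10A1 were kept only through that column and so had to be higher there. COL8A1, a chain of type VIII collagen known from vessel wall and corneal membranes, was at 31.9 FPKM (5.57 to 58.2) uninduced and 83.4 (11.2 to 156) induced, 2.61 times higher with a log2 difference of 1.36. Its partner COL8A2 was at 0.552 (0 to 1.23) and 1.29 (0 to 2.68), the kept chain nearest the threshold of 1 FPKM. COL8A1 stood at 57.8 and 64.7 times COL8A2. COL10A1, the chain of hypertrophic cartilage, was at 0.896 FPKM (0 to 6.39) and 26.2 (0 to 85.2). Its log2 difference of 3.85 exceeded those of 99.7% of all rows kept, and both lower bounds were 0.

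The COL10A1 locus in the table is shared with NT5DC1, at 29.4 FPKM (0 to 63.7) uninduced and 40.7 (0 to 85.6) induced, with AL121963.1, at 0.360 and 4.63, and with RP3-486I3.5, at 3.42 and 7.03. The libraries do not keep strand, so reads of overlapping genes on opposite strands cannot be told apart, and the part of these rows in the COL10A1 value was not tested. Chondrocyte markers were read beside it. Their summed level was 12.0 FPKM uninduced and 23.0 induced, with 2 of 5 above 1 FPKM. MATN3, a cartilage matrix protein, rose from 1.73 FPKM (0 to 3.53) to 17.7 (5.13 to 30.2), while SOX9, the chondrocyte factor, was at 10.2 and 5.13. ACAN and COL2A1, which define cartilage matrix, were listed at 0 in both columns.

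COL13A1, a collagen that spans the plasma membrane at adhesion sites, was the chain with the lowest log2 difference. It was at 36.5 FPKM (11.0 to 61.9) uninduced and 8.46 (0 to 17.4) induced, 4.31-fold lower with a log2 difference of -1.99, and 1.08% of all rows kept had a lower one. The interval of the difference, -55.0 to -1.01 FPKM, lay below 0, although the column intervals overlap between 11.0 and 17.4. Its RefSeq start region, chr10:69801656-69801905 on the plus strand of GRCh38.p14, is shown because it is the one chain lower by the looser criterion; capitals mark TATAAA, 236 bases before the start site.
COL13A1: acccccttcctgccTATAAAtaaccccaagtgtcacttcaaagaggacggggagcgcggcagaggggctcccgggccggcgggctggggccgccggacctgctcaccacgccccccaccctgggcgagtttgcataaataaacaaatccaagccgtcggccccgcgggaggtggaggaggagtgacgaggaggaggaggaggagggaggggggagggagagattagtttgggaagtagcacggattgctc

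Of the last kept chains, COL18A1 was lower in the induced column and COL7A1 was near its uninduced level. COL18A1, a multiplexin whose C-terminal fragment is endostatin, was at 137 FPKM (37.0 to 237) uninduced and 100.1 (27.7 to 172) induced, a log2 difference of -0.45. SLC19A1, which shares its locus, was at 130 and 86.2 FPKM. COL7A1, the chain of the anchoring fibrils that fix epidermis to dermis, was at 31.0 (0 to 62.1) and 28.7 (0 to 63.8), a log2 difference of -0.10 that turns to 0.09 when the columns are scaled to the same sum.

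Of the 20 chains below 1 FPKM in both columns, COL24A1 was the highest, at 0.349 FPKM uninduced and 0.586 induced. COL11A2, whose product pairs with COL11A1, was at 0.256 and 0.431 on the primary assembly and at 0 in its 6 haplotype rows. COL17A1, the hemidesmosome collagen of keratinocytes, was at 0.394 and 0.004, COL28A1 at 0.325 and 0.176, and COL15A1 at 0.162 and 0.439. COL2A1, COL9A1, COL6A5 and COL26A1 were listed at 0 in both columns, and COL19A1, COL20A1, COL22A1 and COL23A1 in the uninduced column only. Of the rest, COL9A2, COL9A3, COL21A1, COL25A1, COL4A3, COL4A4 and COL6A6 lay between 0.003 and 0.418 FPKM. In all, 13 of the 20 were higher, 3 lower and 4 equal, at levels where a deposited interval reached as far as 3.64 FPKM.

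The level of a gene moved with its difference in the whole table. Rows with a mean of both columns of 300 FPKM or more had a median log2 difference of -0.68 (215 rows), and the 4 collagen chains among them, COL1A1, COL1A2, COL6A2 and COL6A3, a median of -0.57. Between 100 and 300 FPKM the median was -0.34 over all rows and 0.56 over 5 chains, which include COL3A1, COL5A2 and COL5A1 as well as COL6A1 and COL18A1. It was -0.13 over all rows and -0.08 over 5 chains from 30 to 100 FPKM, 0.11 and 0.42 over 8 chains from 3 to 30, and 0.35 and 1.12 over COL14A1 and COL8A2 below 3. COL14A1, COL8A2 and, in the range from 3 to 30, COL10A1 were kept only through the induced column and had to be higher. The filter therefore bears on the chain medians of the ranges below 30 FPKM. COL1A1, COL1A2, COL6A2 and COL6A3 had log2 differences from -0.72 to -0.45, near the median of -0.68 of rows as abundant as they are. COL6A1 was at -0.60 against -0.34, and COL3A1 and COL5A2 lay above the median of their range.

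**Figure D3:**
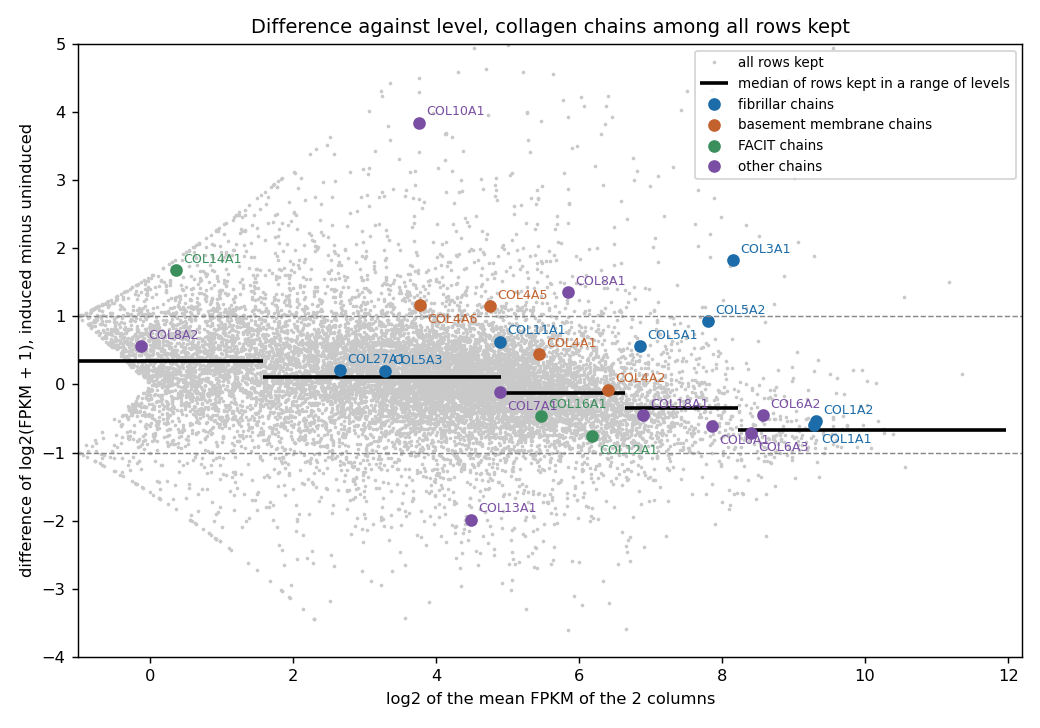
Difference of log2(FPKM + 1), induced minus uninduced (vertical axis), against log2 of the mean FPKM of both columns (horizontal axis) for all rows kept (grey) and the 24 collagen chains (coloured by class). Black lines are medians of all rows in 5 ranges of level; COL1A1, COL1A2, COL6A2 and COL6A3 lie near the line of the highest range, COL3A1 and COL5A2 above theirs; 21 rows lie beyond the vertical range.

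Genes that modify, fold and export procollagen had medians near 0, with members on both sides, and in the crosslinking list TGM2 fell. Of 14 kept genes for prolyl and lysyl modification none rose or fell, and the median log2 difference was 0.03. Among them PPIB was at 491 FPKM uninduced and 523 induced, P4HB at 457 and 548, CRTAP at 208 and 212, and PLOD1 at 198 and 203. PLOD2, which hydroxylates telopeptide lysines ahead of crosslinking, was at 121 FPKM (54.5 to 187) and 52.3 (21.8 to 82.8), a log2 difference of -1.19. Of 13 kept folding and export genes none rose or fell (median -0.09), with PDIA3 at 376 and 341 FPKM, FKBP10 at 246 and 290, SERPINH1, the collagen chaperone, at 235 and 205, and SEC13 at 142 and 114. MIA3, which loads procollagen into COPII carriers, was at 28.7 FPKM (0 to 59.7) and 82.1 (17.8 to 146), a log2 difference of 1.49.

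Of the crosslinking list 1 of 6 kept genes fell and none rose, with a median log2 difference of -0.88; 0.454% of all rows kept fell. All rows with a mean from 30 to 100 FPKM and from 100 to 300 FPKM, the range of these genes, had medians of -0.13 and -0.34. TGM2, a transglutaminase, fell from 111 FPKM (51.2 to 170) to 11.9 (3.90 to 19.9), a log2 difference of -3.11. The lysyl oxidases LOXL2 and LOXL1 were at 251 FPKM (82.4 to 419) and 94.1 (21.6 to 166) uninduced and at 94.6 (22.5 to 167) and 43.9 (4.93 to 82.9) induced, log2 differences of -1.40 and -1.08. LOX was at 142 and 131 FPKM, and LOXL3 at 99.9 and 61.8. Of this list LOXL4 alone was higher, at 42.3 FPKM uninduced and 57.0 induced. Of 4 kept propeptide cleavage genes none rose or fell (median 0.05). ADAMTS2, which removes N-propeptides, was at 26.0 FPKM (2.95 to 49.1) and 7.04 (0 to 15.6), and TLL1, a relative of the C-proteinase BMP1, at 0.572 (0 to 1.74) and 11.4 (1.55 to 21.3), log2 differences of -1.75 and 2.98. TLL1 was kept only through the induced column and so had to be higher there. PCOLCE was at 227 and 199 FPKM and BMP1 at 25.8 and 31.8. Over these 4 lists together 37 genes were kept of 44, of which none rose and TGM2 fell, with a median of 0.00.

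Of 8 kept partners of the collagen fibril none rose or fell (median 0.19). FN1, fibronectin, was at 863 FPKM (0 to 2373) uninduced and 2111 (0 to 6229) induced, DCN at 58.1 (14.4 to 102) and 122 (41.3 to 203), and POSTN at 0.343 and 3.32, log2 differences of 1.29, 1.06 and 1.69. POSTN was kept only through the induced column and so had to be higher there. THBS2 was at 47.7 (20.1 to 75.3) and 22.0 (8.51 to 35.5), a log2 difference of -1.08. SPARC was at 1029 and 1063 FPKM, BGN at 205 and 204, and LUM at 143 and 181.

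Of 8 kept collagen receptors and uptake genes none rose or fell (median -0.23). Of the alpha subunits of collagen-binding integrins, ITGA1 was at 8.61 FPKM (0 to 52.8) and 43.7 (0 to 135), and ITGA2 at 87.0 (33.2 to 141) and 36.6 (5.37 to 67.8), log2 differences of 2.22 and -1.23. Their beta subunit ITGB1 was at 769 and 445 FPKM, the uptake receptor MRC2 at 114 and 116, and the receptor kinase DDR2 at 83.7 and 59.7.

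Of 5 kept collagen degradation genes 2 rose and none fell (median 0.15), where 0.726% of all rows kept rose and 0.454% fell. CTSK, cathepsin K, which cleaves the triple helix, rose from 77.6 FPKM (34.8 to 120) to 430 (196 to 664), a log2 difference of 2.45. MMP13 was listed at 0 uninduced and was at 6.46 FPKM (0.174 to 12.7) induced. It was kept only through the induced column and so had to be higher there. It is also called only where an exact 0 is taken as a value. The interstitial collagenase MMP1 was at 2476 FPKM (97.9 to 4855) uninduced and 2749 (20.7 to 5478) induced. Both values lie above those of every collagen chain, but the intervals overlap those of COL1A1 and COL1A2. MMP14 was at 153 and 113 FPKM, and MMP2 at 113 and 75.8. Of 8 kept transcriptional regulators of collagen genes none rose or fell (median -0.10). YBX1 was at 409 FPKM (190 to 628) and 202 (98.4 to 305), and RFX5, a repressor of type I genes, at 11.6 (0.027 to 23.1) and 25.8 (1.76 to 49.8), log2 differences of -1.01 and 1.09. CREB3L1 was at 105 and 88.3 FPKM, SP3 at 37.5 and 36.6, and CEBPB at 27.9 and 24.7.

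**Figure D4:**
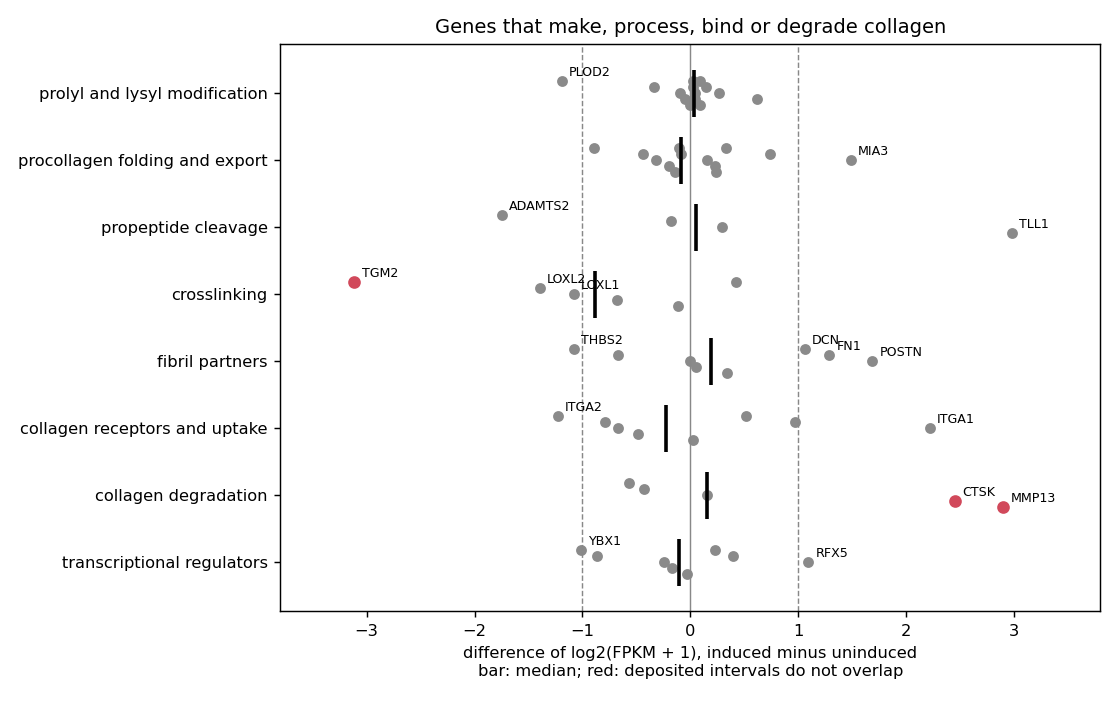
Difference of log2(FPKM + 1), induced minus uninduced (horizontal axis), for the kept genes of 8 lists around collagen (rows); each point is a gene, black bars are list medians and red points have intervals that do not overlap. TGM2 lies far left, CTSK and MMP13 far right, and most modification and export genes lie between -1 and 1.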

How the data were processed

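RNA-seq was done on 4 samples, 2 uninduced and 2 induced. RNA was column-purified and libraries were non-stranded, per the labels' protocols. Per the submitters' processing notes, TopHat was used and the build was hg19. The version of TopHat, the quantifier and any filter: not given in the sources used here. Each deposited FPKM column comes with a lower and an upper bound (other columns), per the file headers, 1 value per group. Whether a column combines both samples, and the level of the interval, is not given; the induced column was matched by its name. The 3 value columns of 1 further condition were not used. Locus starts were counted from 0 in the table and are given from 1.

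Rows with 1 FPKM or more in either column were kept, differences are on log2(FPKM + 1), which understates the change of low genes, and the 2-fold threshold is a difference of 1. With values per sample limma would have been used; there were none. Intervals were compared instead, and 3 kept rows with malformed bounds, no collagen chain among them, were never called. Chains were classed by structure. Named genes are FOXA2, every kept chain, and of each list the 4 kept genes with the highest mean, those called, and those 2-fold or more apart. Members and lists were chosen with earlier results of these data known. Marker and partner-locus genes and LOXL4 are named besides. Calls were tested on simulated data. Alternatives were another pseudocount, filters, scalings and call rules. Computation used Python 3.11.15, numpy 2.4.6, pandas 2.3.3 and matplotlib 3.10.9.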

Additional observations from a re-analysis of the deposited data

How the results depend on the processing

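No paired analysis was possible because each group has 1 column and no values per sample, so no replicate could be left out either. The median log2 difference of the collagen chains, 0.20, became 0.032 with no filter on low values, 0.058 at a mean of 5 FPKM or more, 0.375 when scaled to equal column sums, 0.092 with quantile normalization and -0.077 at 1 FPKM or more in both columns, a filter chosen after seeing the data. The median of the biosynthesis genes, 0.00, became 0.19 with the same sum and 0.21 with quantile normalization. Scaling to the same sum moved the median of all rows from 0.05 to 0.23. By the interval of the difference, 1 collagen chain was higher (COL14A1) and 1 lower (COL13A1), and 1 further biosynthesis gene was higher (TLL1). With the same sum, TLL1 rose by the column intervals. COL14A1 and TLL1 were kept only through the induced column and so had to be higher there. COL5A2 passed 2-fold with the same sum and with quantile normalization (7 chains), and COL8A2 with a pseudocount of 0.1 (7 chains). COL13A1 was 2-fold lower and COL3A1, COL8A1, COL4A5 and COL4A6 2-fold higher with the other pseudocount and the 3 other scalings; the remaining alternatives cannot move a gene's difference. Over all rows, 1317 were 2-fold higher and 863 lower; the counts were 1735 and 613 with the same sum, 1012 and 987 with quantile normalization, 1972 and 1091 with a pseudocount of 0.1, 712 and 660 at a mean of 5 FPKM, and 842 and 704 at 1 FPKM in both columns. The interval of the difference lay above 0 for 180 rows and below 0 for 159, where 104 rose and 65 fell by the column intervals. Interval width limits every call.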

Other observations

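Rows named after collagen genes that the rule does not take held almost no signal. The antisense rows COL18A1-AS1, COL18A1-AS2, COL4A2-AS1, COL4A2-AS2 and COL5A1-AS1 were at or below 0.077 FPKM in both columns, and the pseudogene rows COL11A2P1, COL6A4P1 and COL6A4P2 at or below 0.013. As the libraries keep no strand, the antisense values cannot be told apart from reads of overlapping chains.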
